A study of Homo sapiens with 21 samples.

Results

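Carbonic anhydrases, lactate transporters and bicarbonate importers handle the acid that glycolytic cells make, and 8 such genes were followed through BT-549 cultures: CA9, CA12, CA2, SLC16A1, SLC16A3, BSG, SLC4A4 and SLC4A7. They are 8 of the 42339 genes in the deposited count table. They were chosen by name, in the knowledge that CA9 was among the largest falls on MUC1 silencing. Their values in that comparison are therefore given as a description without a test. BT-549 is an established triple-negative breast cancer (TNBC) cell line, labelled as wild type, and total RNA from 21 cultures was sequenced as poly(A)-selected, stranded, paired-end libraries, 3 in each of 7 groups. The 2D cells grew attached in medium with serum. The 3D cells were mammospheres, which are spheres grown unattached in MammoCult medium, at passage 6, and are labelled as controls. The study names the controls of GO-203 as vehicle-treated, and the labels give no vehicle for them. A further group of such mammospheres received 0.75 umol/L GO-203, a peptide directed at the CQC motif in the cytoplasmic tail of MUC1-C. Mammospheres of the tet-MUC1shRNA line (passage 6) and of the tet-MYCshRNA line (passage 8) received either 0.1% DMSO as vehicle or 500 ng/ml doxycycline (DOX), which switches on the shRNA.

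Some limits follow from this design. Each tet line carried a single shRNA sequence in a puromycin-selected vector, and no DOX-treated line with a control shRNA is among these samples, so an effect of DOX and an effect of silencing cannot be told apart. The 2D and 3D cells differed in attachment, medium and passage together. The study gives the cultures as triplicates without saying more on how they were separated, so p-values measure the spread between these libraries, which may be technical. Fewer cells that express a gene and less RNA per cell cannot be told apart in bulk RNA.

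Cells that ferment glucose export lactate together with protons. SLC16A1 (MCT1) and SLC16A3 (MCT4) are the monocarboxylate transporters that carry this pair across the plasma membrane, and BSG (basigin, CD147) is the chaperone that brings both to the cell surface. CA9 and CA12 are membrane-anchored carbonic anhydrases whose active site faces outward, where they turn CO2 and water into bicarbonate and a proton, while CA2 does so in the cytosol. SLC4A4 and SLC4A7 are sodium-bicarbonate cotransporters that bring bicarbonate into the cell. CA9 is a textbook target of hypoxia-inducible factor (HIF) and is widely used as a marker of hypoxic tumor cells.

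Library totals ran from 38026597 to 99751717 counts. The mesenchymal markers of the line (VIM, CDH2, FN1, ZEB1 and AXL) were present in every group, with a summed level of 2341 to 16143 CPM (counts of a gene relative to the library's scaled total). Within that sum markers moved in opposite directions. FN1 went from 452 to 468 CPM in 2D cells up to 6205 to 6882 CPM in 3D cells, and CDH2 from 440 to 466 CPM down to 48.9 to 50.9 CPM. With DOX CDH2 went up from 11.1 to 12.8 CPM to 72.9 to 76.2 CPM and ZEB1 down from 303 to 334 CPM to 115 to 125 CPM in the tet-MUC1shRNA line, and FN1 went from 5172 to 5253 CPM up to 11272 to 13535 CPM in the tet-MYCshRNA line. The luminal markers summed to between 18.7 and 43.9 CPM, nearly all of it from ERBB2. ERBB2 went from 33.3 to 37.7 CPM in 2D cells down to at most 23.0 CPM in 3D cells and from 18.2 to 22.8 CPM up to 27.0 to 42.3 CPM on MYC silencing, and CDH1 from 1.31 to 1.55 CPM in 2D cells to 0 in all 3D libraries. Immune and endothelial markers summed to 1.16 to 1.67 CPM in 2D cells and 5.98 to 7.19 CPM in 3D cells, with PECAM1 going from at most 0.0353 CPM to between 5.83 and 7.08 CPM. PTPRC, of the same list, went the other way, from 1.06 to 1.49 CPM down to 0.0301 to 0.115 CPM, and CDH5 and CD3E stood at 0 in all libraries of both groups. The part of these marker changes in the results below was not tested. A single library stood apart from its replicates. The DOX-treated tet-MYCshRNA library 1 differed from its 2 replicates by a chi-square per degree of freedom of 45.6 and 31.5, against at most 18.6 in all other replicate pairs. Without it the log2 fold changes on MYC silencing were -1.58 for CA9, 0.62 for CA12, -1.25 for SLC16A1, 0.86 for BSG and -1.10 for SLC4A7, and each of these 5 kept its call. The silenced genes were checked in each library. MUC1 was at 101, 82.4 and 85.3 CPM in vehicle-treated and 20.2, 21.6 and 23.1 CPM in DOX-treated tet-MUC1shRNA mammospheres. MYC was at 446, 425 and 382 CPM in vehicle-treated and 239, 282 and 304 CPM in DOX-treated tet-MYCshRNA mammospheres, a log2 fold change of -0.62 (SE 0.08, edgeR adjusted p = 9.1e-05). MUC1 itself was higher on MYC silencing (log2 fold change 1.25, SE 0.11, edgeR adjusted p = 5.1e-06). It was also higher under GO-203 (log2 fold change 0.33, SE 0.07, edgeR adjusted p = 0.00191). In the tet-MUC1shRNA line MYC RNA was at 240, 253 and 235 CPM with vehicle and 299, 299 and 271 CPM with DOX (log2 fold change 0.25, SE 0.04).

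Promoters are shown first because CA9 and SLC16A3 are HIF targets by textbook knowledge, and because CA12 and BSG had opposite signs with DOX in the tet lines. Of the 8 genes, 6 had a promoter window in RefSeq that was used here, and the 4 below are given as the 250 bases before the RefSeq transcription start nearest to the principal (MANE) start. Capitals mark the letters ACGTG, the core of a HIF response element, and GCGTG, its common variant, read on either strand. The capitals in BSG also hold CACGTG, the E-box that MYC and its partner MAX bind, which contains ACGTG on both strands. The windows lie at chr9:35673678-35673927 (CA9, plus strand), chr17:82228792-82229041 (SLC16A3, plus strand), chr19:572346-572595 (BSG, plus strand) and chr15:63381847-63382096 (CA12, minus strand) of GRCh38.p14.
CA9: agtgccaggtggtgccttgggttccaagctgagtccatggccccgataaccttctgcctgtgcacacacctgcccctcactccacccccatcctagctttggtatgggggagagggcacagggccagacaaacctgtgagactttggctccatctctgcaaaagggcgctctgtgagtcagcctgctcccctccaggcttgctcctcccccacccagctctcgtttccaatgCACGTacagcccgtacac
SLC16A3: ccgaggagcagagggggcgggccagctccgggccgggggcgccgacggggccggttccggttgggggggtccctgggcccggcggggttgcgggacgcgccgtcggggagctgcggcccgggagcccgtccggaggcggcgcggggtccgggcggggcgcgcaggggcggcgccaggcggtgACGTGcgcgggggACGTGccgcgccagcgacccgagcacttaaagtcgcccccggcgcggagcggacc
BSG: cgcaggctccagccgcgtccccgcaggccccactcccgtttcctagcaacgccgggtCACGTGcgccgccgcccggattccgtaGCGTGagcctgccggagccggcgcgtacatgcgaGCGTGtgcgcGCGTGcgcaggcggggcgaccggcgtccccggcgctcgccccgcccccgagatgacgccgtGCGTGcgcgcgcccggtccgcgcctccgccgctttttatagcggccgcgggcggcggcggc
CA12: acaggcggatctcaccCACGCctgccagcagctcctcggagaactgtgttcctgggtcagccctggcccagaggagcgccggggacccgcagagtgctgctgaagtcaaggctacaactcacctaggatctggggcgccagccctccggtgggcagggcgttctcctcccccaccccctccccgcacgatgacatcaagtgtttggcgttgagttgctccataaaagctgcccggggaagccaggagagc
CA9 held ACGTG once, on the strand opposite to the gene, at bases -18 to -14 before the start. SLC16A3 held 2 copies, at -68 to -64 and at -55 to -51. The BSG window had its E-box at -193 to -188 and 4 copies of GCGTG, and CA12 had a single GCGTG at -234 to -230. The SLC4A7 window had 2 copies of GCGTG and that of SLC4A4 had neither core. ACGTG was found in 18.5% of all 35116 such windows, GCGTG in 32.2%, either of them in 43.2% and CACGTG in 6.35%, so a match is a description and not evidence of binding.

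CA9 lies on chromosome 9 from 35673928 to 35681159 (plus strand). It was almost absent from 2D cells, at 0.535, 1.21 and 0.776 CPM, and stood at 44.9, 42.6 and 41.8 CPM in 3D cells. The lowest 3D library was far above the highest 2D library. The log2 fold change was 5.70 (SE 0.15), a 52.1-fold rise, with an edgeR adjusted p of 1.1e-14 on 3 against 3 libraries. Vehicle-treated mammospheres of the tet lines also expressed it, at 49.8, 33.6 and 37.3 CPM in tet-MUC1shRNA and at 22.5, 21.3 and 22.6 CPM in tet-MYCshRNA cells, the latter below the GO-203-treated 3D libraries.

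GO-203 lowered CA9. The treated 3D libraries held 24.7, 28.7 and 27.4 CPM, below each of the 3 control ones, with a log2 fold change of -0.66 (SE 0.07, edgeR adjusted p = 1.6e-07). MYC silencing lowered it as well. DOX-treated tet-MYCshRNA mammospheres had 5.81, 7.98 and 7.25 CPM against more than 21 CPM in each vehicle library, a 3.19-fold fall (log2 fold change -1.68, SE 0.12, edgeR adjusted p = 1.3e-06).

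In the tet-MUC1shRNA line CA9 nearly disappeared with DOX. The DOX libraries held 2, 20 and 2 counts, or 0.0363, 0.284 and 0.0451 CPM, against 1920, 1440 and 1929 counts with vehicle. The fitted log2 fold change was -8.15 (SE 0.24). Over the summed counts the level was 281-fold lower, with a 95% interval of 189 to 440 that covers counting error only. The library with 20 counts held most of the remaining signal, and without it the log2 fold change was -9.87. The 7 groups thus ranked from 3D cells and tet-MUC1shRNA vehicle, whose ranges overlapped, through GO-203, tet-MYCshRNA vehicle, tet-MYCshRNA DOX and 2D cells to tet-MUC1shRNA DOX, and the ranges of all later neighbors in that order were separate.

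Of the exon bases of CA9, 35.7% overlap ARHGEF39, a gene on the opposite strand, and the strand setting of the counting is not given in the sources used here. ARHGEF39 was at 24.9 to 25.6 CPM in 2D cells, where CA9 was near 1 CPM, and at 17.3 to 19.5 CPM in 3D cells. In tet-MUC1shRNA mammospheres ARHGEF39 went from 9.66 to 11.8 CPM with vehicle down to 7.52 to 8.06 CPM with DOX, beside a CA9 level below 0.3 CPM. It was also lower under GO-203, at 12.8 to 16.0 CPM. On MYC silencing it went from 16.6 to 18.4 CPM down to 8.22 to 9.21 CPM. ARHGEF39 thus fell along with CA9 under each treatment. The part of reads from the overlap in the CA9 values was not tested.

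**Figure D1:**
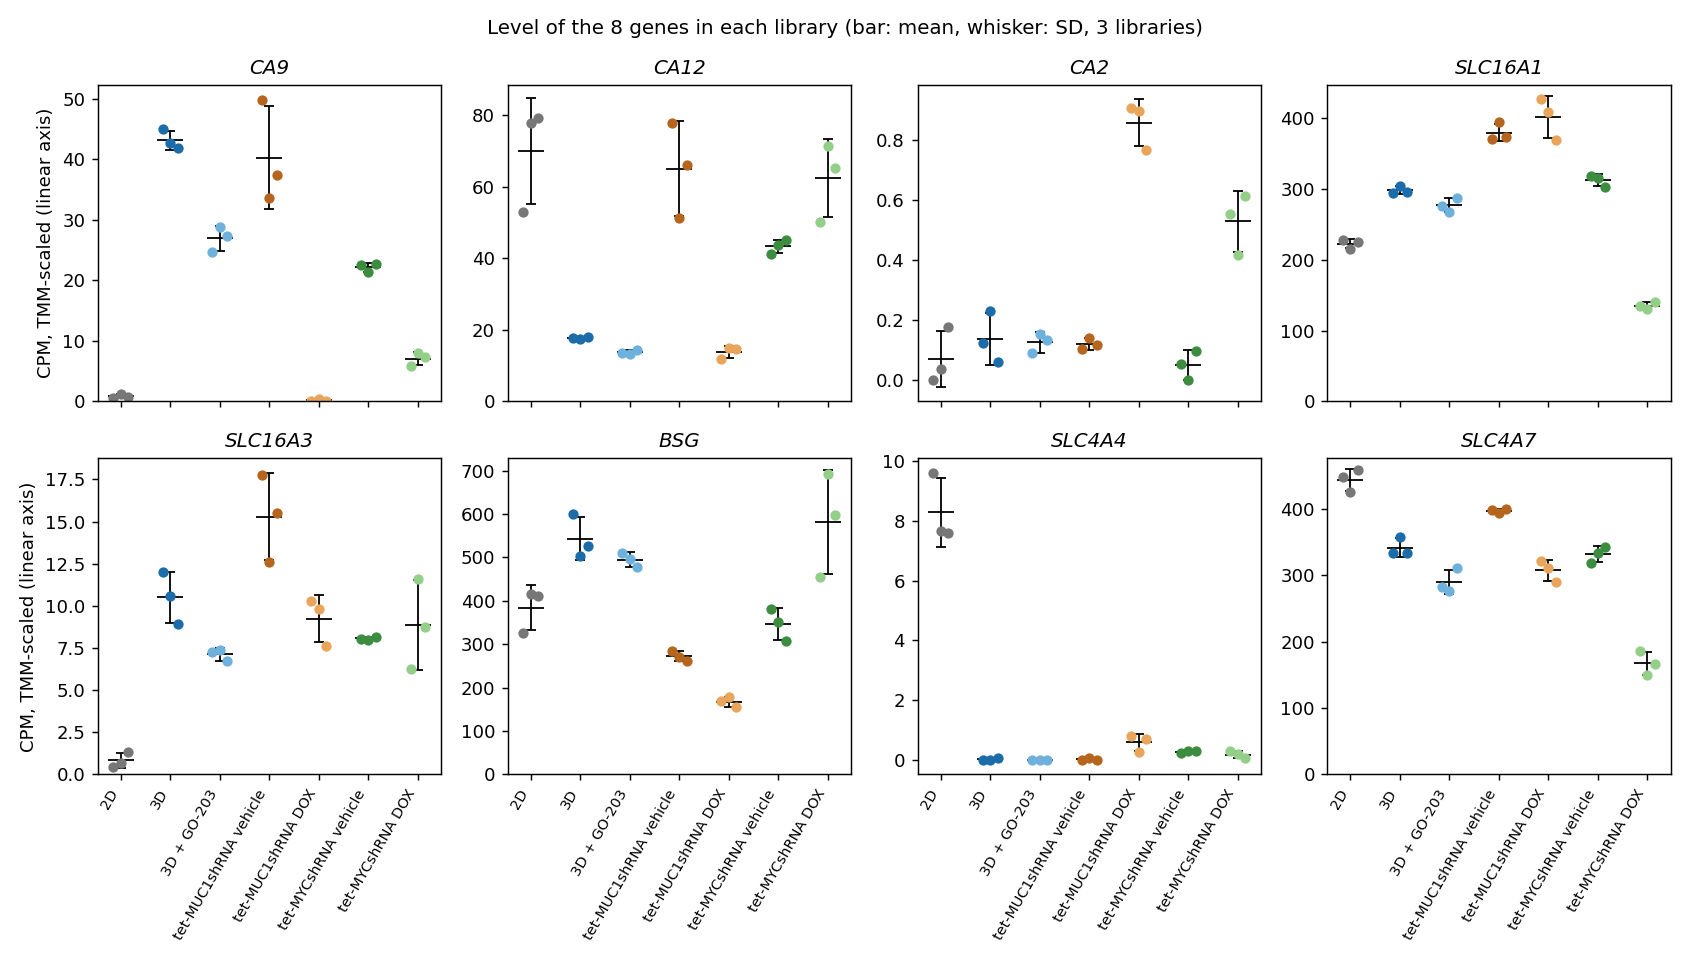
Level of each of the 8 genes in CPM (linear axes, each with its own range) in the 3 libraries of each of the 7 groups. Points are libraries, the horizontal bar is the mean and whiskers are the SD. CA9 stood at 41.8 to 44.9 CPM in 3D cells and below 0.3 CPM in DOX-treated tet-MUC1shRNA mammospheres, and SLC4A4 was above 1 CPM only in the 2D libraries.

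CA12 went the other way in 3D cells. It lies on chromosome 15 from 63321378 to 63381846 (minus strand) and was at 52.8, 77.7 and 79.2 CPM in 2D cells and at 17.8, 17.3 and 18.0 CPM in 3D cells. The fall was 3.80-fold (log2 fold change -1.93, SE 0.11, edgeR adjusted p = 3.3e-10), and the groups did not overlap. Vehicle-treated mammospheres of the tet lines had more of it. Vehicle-treated tet-MUC1shRNA mammospheres had 77.7, 51.2 and 66.2 CPM, and set against 2D cells in place of the 3D cells they gave a log2 fold change of -0.06 (edgeR adjusted p = 0.687). The vehicle-treated tet-MYCshRNA line, at 41.2, 43.6 and 45.0 CPM, still had less than 2D cells (log2 fold change -0.67, edgeR adjusted p = 1.7e-04).

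Under GO-203, CA12 was at 13.5, 13.3 and 14.4 CPM, a log2 fold change of -0.35 (SE 0.08, edgeR adjusted p = 0.00421), a call that was lost when all 21 libraries shared a fit (edgeR adjusted p = 0.103). With DOX in the tet-MUC1shRNA line CA12 was at 11.9, 14.9 and 14.6 CPM, a log2 fold change of -2.25 (SE 0.11). On MYC silencing it rose to 50.2, 71.4 and 65.2 CPM (log2 fold change 0.51, SE 0.11, edgeR adjusted p = 0.00295). CA9 and CA12, the outward-facing pair, therefore differed in sign in 3D vs. 2D cells and on MYC silencing and shared it under GO-203 and with DOX in the tet-MUC1shRNA line.

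CA2, the cytosolic enzyme on chromosome 8, was at the limit of detection. No library of the 5 groups without DOX had more than 12 counts, and 0.231 CPM was its highest level there. It reached 50, 63 and 34 counts in DOX-treated tet-MUC1shRNA mammospheres (0.906, 0.895 and 0.766 CPM) and 28, 24 and 38 counts in DOX-treated tet-MYCshRNA mammospheres (0.554, 0.416 and 0.614 CPM). Both DOX groups lay above every other group, and the gene passed the low-count filter only through them. It thus had to differ in those fits, so no p is given for it, and it was too low to be tested in 3D vs. 2D cells and under GO-203. The summed counts were 12.5-fold higher on MYC silencing (95% counting interval 6.48 to 26.9) and 7.20-fold higher with DOX in the tet-MUC1shRNA line (4.29 to 12.9). The fitted log2 fold change of 3.48 on MYC silencing became 2.75 without the vehicle library at 0 and 4.34 without the one at 6 counts.

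SLC16A1, on chromosome 1 from 112911847 to 112957593 (minus strand), is the more widely expressed of the lactate transporters. It was at 228, 216 and 225 CPM in 2D cells and rose modestly to 295, 305 and 295 CPM in 3D cells, without overlap (log2 fold change 0.47, SE 0.05, edgeR adjusted p = 1.0e-06). MYC silencing lowered it by more than 2-fold. Vehicle-treated libraries had 319, 316 and 303 CPM and DOX-treated ones 134, 130 and 140 CPM, a 2.34-fold fall with narrow spread (log2 fold change -1.23, SE 0.06, edgeR adjusted p = 7.9e-08). In the tet-MUC1shRNA line the groups overlapped, at 371, 394 and 374 CPM with vehicle and 428, 409 and 369 CPM with DOX. GO-203-treated cells had 276, 268 and 287 CPM (log2 fold change -0.09, SE 0.05, edgeR adjusted p = 0.286).

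SLC16A3, on chromosome 17 from 82217934 to 82261129 (plus strand), is the form that glycolytic cells typically use to export lactate. It was at 0.468, 0.694 and 1.36 CPM in 2D cells and at 12.0, 10.6 and 8.94 CPM in 3D cells. No library of one group came near the other, and the rise was 12.7-fold (log2 fold change 3.67, SE 0.25, edgeR adjusted p = 1.9e-09). GO-203 lowered it to 7.29, 7.41 and 6.70 CPM (log2 fold change -0.54, SE 0.12, edgeR adjusted p = 0.00253). On MYC silencing its groups overlapped, at 8.06, 7.99 and 8.17 CPM with vehicle and 6.25, 11.6 and 8.75 CPM with DOX (log2 fold change 0.12, SE 0.18, edgeR adjusted p = 0.618), and the value turned to -0.12 without the DOX library at 11.6 CPM and to 0.30 (edgeR adjusted p = 0.0765) without the one at 6.25 CPM. With DOX in the tet-MUC1shRNA line it went from 17.8, 12.6 and 15.5 CPM to 10.3, 9.79 and 7.64 CPM (log2 fold change -0.73, SE 0.11).

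BSG, on chromosome 19 from 571277 to 583494 (plus strand), was abundant throughout. Levels of 326, 417 and 412 CPM in 2D cells and 600, 503 and 527 CPM in 3D cells gave a log2 fold change of 0.56 (SE 0.08, edgeR adjusted p = 1.9e-05). The vehicle-treated tet lines did not share this direction. They had 284, 271 and 262 CPM in the tet-MUC1shRNA line and 380, 352 and 307 CPM in the tet-MYCshRNA line, and against 2D cells their log2 fold changes were -0.46 (edgeR adjusted p = 3.1e-05) and -0.13 (edgeR adjusted p = 0.213). On MYC silencing BSG rose to 455, 692 and 599 CPM (log2 fold change 0.73, SE 0.12, edgeR adjusted p = 6.0e-04). With DOX in the tet-MUC1shRNA line it went down to 169, 177 and 154 CPM (log2 fold change -0.72, SE 0.05). GO-203-treated cells, at 510, 497 and 477 CPM, overlapped with control 3D cells (log2 fold change -0.12, SE 0.06, edgeR adjusted p = 0.204), though without the 3D library at 503 CPM the value was -0.17 (edgeR adjusted p = 0.0664).

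SLC4A4, on chromosome 4 from 71062667 to 71572087 (plus strand), was above 1 CPM only in the attached cells. The 2D libraries held 431, 430 and 430 counts (9.62, 7.65 and 7.59 CPM), and the 3D libraries 0, 0 and 4 counts. Over the summed counts 3D cells were 343-fold lower (95% counting interval 134 to 1261). The gene passed the low-count filter only through the 2D libraries, so no p is given for it. The fitted log2 fold change of -8.26 became -11.72 without the 3D library with 4 counts, and -4.95 with vehicle-treated tet-MYCshRNA mammospheres in place of 3D cells. The GO-203 libraries had 0 counts, so that comparison was not tested. Some RNA was seen in the tet lines. Vehicle-treated tet-MYCshRNA mammospheres had 16, 28 and 18 counts and DOX-treated ones 14, 10 and 4 (log2 fold change -0.64, SE 0.55), and there the gene passed the filter through the vehicle libraries only. The tet-MUC1shRNA libraries had 0, 2 and 0 counts with vehicle and 44, 18 and 30 with DOX, 36.0-fold more over the summed counts (95% counting interval 9.70 to 302), and these levels, at most 0.798 CPM, stayed well under those of 2D cells. The fitted log2 fold change of 5.02 became 7.89 without the vehicle library with 2 counts.

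SLC4A7, on chromosome 3 from 27372721 to 27484420 (minus strand), was highest in 2D cells. It was at 448, 425 and 458 CPM in 2D cells and 334, 358 and 334 CPM in 3D cells (log2 fold change -0.32, SE 0.05, edgeR adjusted p = 9.2e-05). GO-203-treated cells had 282, 277 and 311 CPM, below all 3 control libraries (log2 fold change -0.22, SE 0.06, edgeR adjusted p = 0.00904). MYC silencing took it from 318, 334 and 342 CPM to 185, 150 and 166 CPM, a 2.00-fold fall (SE 0.09 on the log2 scale, edgeR adjusted p = 5.8e-06). With DOX in the tet-MUC1shRNA line it went from 397, 393 and 400 CPM to 321, 311 and 290 CPM (log2 fold change -0.38, SE 0.04).

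**Figure D2:**
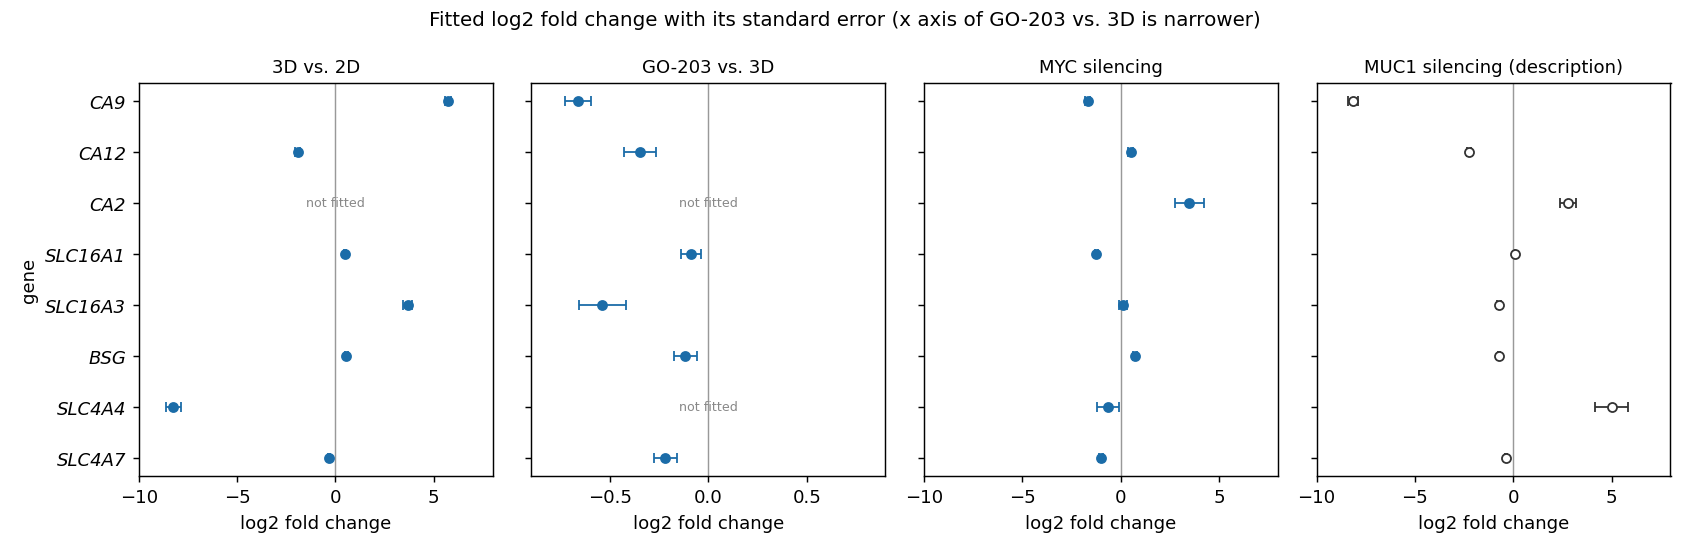
Fitted log2 fold change (x axis) of the 8 genes (y axis) with its standard error, from 3 against 3 libraries in each of the 4 comparisons. Open circles mark the tet-MUC1shRNA comparison, which was used to choose the genes and carries no test. CA9 stood at 5.70 in 3D vs. 2D cells, -0.66 under GO-203, -1.68 on MYC silencing and -8.15 with DOX in the tet-MUC1shRNA line.

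Large shares of all genes passed the threshold too, so the counts over the 8 genes were set beside those over all genes tested. A gene whose other group would not have passed the low-count filter alone, so that all 3 libraries of its higher group were needed, had a difference set in part by the filter. Such genes, SLC4A4 in 3D vs. 2D cells and CA2 and SLC4A4 on MYC silencing, were left out of these counts, while the shares over all genes include genes of this kind. In 3D vs. 2D cells, 4 of the other 6 genes tested rose (CA9, SLC16A1, SLC16A3 and BSG) and 2 fell (CA12 and SLC4A7) with an edgeR adjusted p below 0.1, where 32% of 19190 genes rose and 31.7% fell. A log2 change beyond 1.5 was reached by 2 that rose (CA9 and SLC16A3) and 1 that fell (CA12), against 6.9% and 9.29% of all genes. Under GO-203 none of the 6 genes tested rose and 4 fell (CA9, CA12, SLC16A3 and SLC4A7), against 11.1% and 12.9% of 18488 genes. None reached a log2 change of 1.5 there, which 0.498% of all genes did upward and 0.26% downward. On MYC silencing 2 of the other 6 rose (CA12 and BSG) and 3 fell (CA9, SLC16A1 and SLC4A7), against 30.3% and 28.1% of 19951 genes. CA9 alone reached the larger change, downward, where 7.06% of all genes did upward and 3.39% downward. With DOX in the tet-MUC1shRNA line, used to choose the genes, 5 lay past the same limits downward (CA9, CA12, SLC16A3, BSG and SLC4A7), 2 of them (CA9 and CA12) with the larger change, and CA2 and SLC4A4 lay upward. CA9 passed the filter there only through the vehicle libraries, and CA2 and SLC4A4 only through the DOX libraries. The shares of all 19220 genes there were 30.7% upward and 31.6% downward, and 5.74% and 3.08% with the larger change, and nothing is read from that count. The GO-203 and the 3D vs. 2D comparisons share the 3D libraries.

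Levels between genes were compared as mean CPM per kb of exon. BSG had the highest mean of the 8 in every group except DOX-treated tet-MUC1shRNA mammospheres. It stood at 123 CPM per kb in 3D cells and 132 in DOX-treated tet-MYCshRNA mammospheres. In vehicle-treated tet-MUC1shRNA mammospheres BSG, at 59.3 to 64.3 CPM per kb, overlapped with SLC16A1, at 58.5 to 62.1. SLC16A1 stood at 47.0 CPM per kb in 3D cells and SLC16A3 at 1.14, so the 12.7-fold rise of SLC16A3 left it below SLC16A1 in all 7 groups. The SLC16A3 value is divided by 9.24 kb, the union of all annotated exons, and a shorter expressed transcript would raise it. Between CA9 and CA12 the order turned over. CA12 led in 2D cells, at 9.99 CPM per kb against 0.526 for CA9, and CA9 led in 3D cells, at 27.0 against 2.53. CA9 also led CA12 under GO-203 (16.8 against 1.96) and in both vehicle-treated lines. CA12 led CA9 in both DOX-treated lines, at 1.97 against 0.0763 in tet-MUC1shRNA and 8.90 against 4.39 in tet-MYCshRNA mammospheres. In the vehicle-treated lines the order rests on the exon lengths, 1.598 kb for CA9 and 6.998 kb for CA12. In plain CPM the CA12 mean was higher there, at 65.0 against 40.2 in tet-MUC1shRNA and 43.3 against 22.2 in tet-MYCshRNA mammospheres. Of the bicarbonate importers, SLC4A7 was at 46.1 CPM per kb in 2D cells, where SLC4A4 had its highest level of 0.888.

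**Figure D3:**
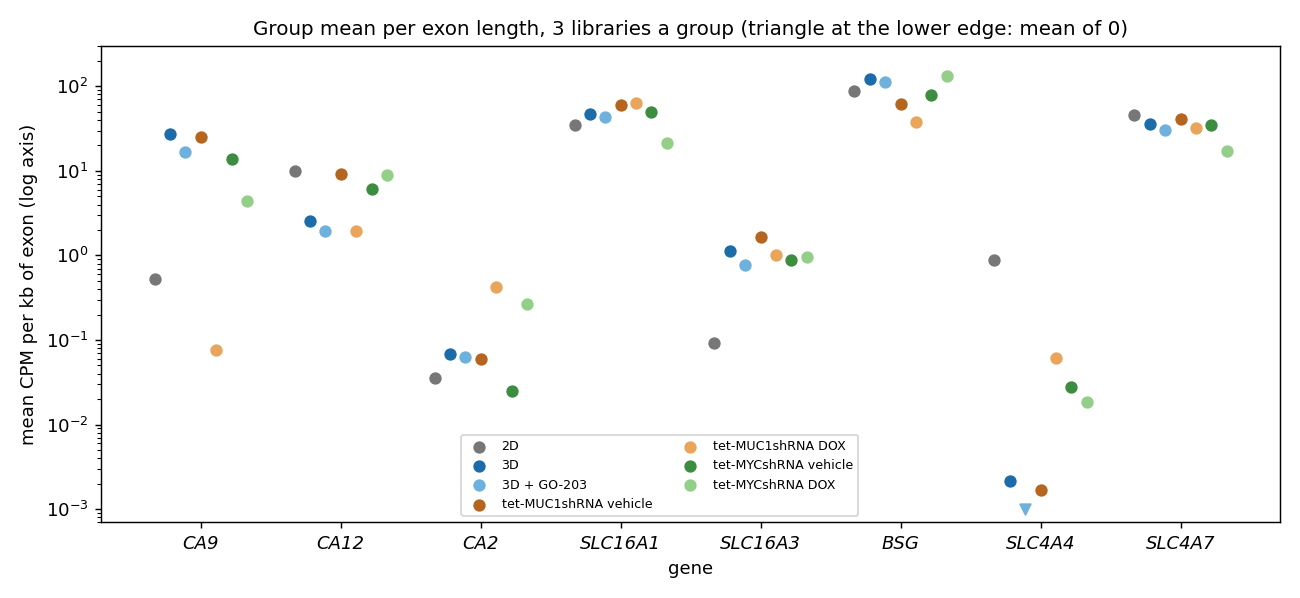
Mean level of each gene in the 7 groups, in CPM per kb of exon on a log axis. Each point is the mean of 3 libraries, and the triangle at the lower edge is a mean of 0. CA9 spans 27.0 CPM per kb in 3D cells to 0.0763 in DOX-treated tet-MUC1shRNA mammospheres, whereas SLC16A1, BSG and SLC4A7 stay above 17 in every group.

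The wider families were counted in the same way, beside the 32% of all genes that rose and the 31.7% that fell in 3D vs. 2D cells. Of 12 other carbonic anhydrases, 8 were tested, 3 rose and 2 fell, of which CA1 passed the filter through the 2D libraries only, with a median log2 fold change of -0.06 against -0.01 over all genes. CA8, a family member without catalytic activity, rose most (log2 fold change 5.80) and the cytosolic CA13 fell most (-3.07) among genes with a mean count of 100 or more. CA8 was at 0.212 to 0.356 CPM in 2D and 14.1 to 14.9 CPM in 3D cells, but at 0.830 to 1.40 CPM in vehicle-treated tet-MUC1shRNA and 0.0800 to 0.216 CPM in vehicle-treated tet-MYCshRNA mammospheres. Of 16 other monocarboxylate transporters and chaperones, 12 were tested, 5 rose and 6 fell, led by SLC16A12, a creatine transporter (9.46), and by SLC16A14 (-1.89). SLC16A12 was at 0, 0.0356 and 0.106 CPM in 2D cells and 36.9, 34.6 and 36.3 CPM in 3D cells, or 7.37 CPM per kb beside 1.14 for SLC16A3. Of the 5 rises 3 (SLC16A5, SLC16A7 and SLC16A12) passed the filter through the 3D libraries only, which leaves 2 rises and 6 falls among 9. CA4, a membrane-anchored enzyme, stood at 6.05 CPM per kb in 2D and 29.2 in 3D cells, beside 27.0 for CA9. The untransduced 3D cells had 63.2 to 78.6 CPM of it, whereas vehicle-treated mammospheres, at 6.46 to 7.03 CPM in tet-MUC1shRNA and 4.02 to 5.49 CPM in tet-MYCshRNA cells, lay below each 2D library (8.32 to 19.0 CPM). The other bicarbonate transporters are 13 genes listed by family, not by what each of them carries. Of these, 8 were tested, 2 rose and 3 fell, with SLC4A11 at 0.76 and the sodium-driven exchanger SLC4A8 at -4.13.

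Pumps and exchangers move protons without lactate, and the same shares of all genes apply to them. Of the sodium-proton exchangers and their partners 12 of 16 were tested, 4 rose and 6 fell (median log2 fold change -0.16), led by SLC9A7, an exchanger of the Golgi (2.74), and SLC9A5 (-1.06). Of the 25 vacuolar ATPase subunits, the pump that acidifies lysosomes, 20 were tested, 6 rose, of which ATP6V0A4 passed the filter through the 3D libraries only, and 5 fell, with ATP6AP2 at 0.69 and ATP6V1H at -0.49. All 17 HIF target genes were tested, 16 rose, beside 32% of all genes, and LOX, a collagen cross-linking enzyme, fell (-0.53), with a median log2 fold change of 2.36, and SLC2A3, the glucose transporter GLUT3, rose most (7.34). EGLN3, counted among the 16, passed the filter through the 3D libraries only.

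Under GO-203, where 11.1% of all genes rose and 12.9% fell, 10 of the 17 HIF targets fell and none rose, with a median log2 fold change of -0.21 against 0.02 over all genes, and NDRG1 fell most (-0.64). The other carbonic anhydrases gave 3 rises and 1 fall among 7 tested, with CA11, another family member without catalytic activity, at 0.80 and CA8 at -0.69. CA4 was one of the rises, at 104 to 117 CPM (log2 fold change 0.67, edgeR adjusted p = 5.2e-07), where CA9 fell. The other monocarboxylate transporters gave 5 rises and 2 falls among 13, with SLC16A14 at 1.27 and SLC16A5 at -0.34. The other bicarbonate transporters gave no rise and 2 falls among 9, SLC4A11 at -0.39 and SLC4A8, which passed the filter through the control 3D libraries only. Exchangers gave 2 rises and 3 falls among 12 (SLC9B2 at 0.42, SLC9A7 at -0.82), and vacuolar ATPase subunits 6 rises and 1 fall among 20 (ATP6V0A1 at 0.43).

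On MYC silencing 14 of the 20 vacuolar ATPase subunits tested rose and none fell, beside 30.3% and 28.1% of all genes, the shares that apply to each list in this comparison. Their median log2 fold change was 0.42, with TCIRG1, the a3 subunit, at 1.33. Without DOX library 1, which stood apart, 16 of 21 subunits rose and 1 fell, beside 30.6% and 28.9% of 20738 genes. Of the 17 HIF targets, 2 rose and 9 fell (median -0.27), from KDM3A, a histone demethylase, at 0.21 to SLC2A3 at -1.67. The other carbonic anhydrases gave 3 rises and 1 fall among 6, led by CA4 at 3.14, and CA13 at -1.15. CA4 went from 5.49, 4.02 and 4.20 CPM to 33.0, 45.2 and 43.9 CPM, and per length it was at 16.8 CPM per kb with DOX beside 4.39 for CA9. The other monocarboxylate transporters gave 7 rises and 4 falls among 13, with SLC16A12 at 2.55 and the aromatic amino acid transporter SLC16A10 at -2.99. The other bicarbonate transporters gave 2 rises and 3 falls among 9 (SLC4A2 at 0.32, SLC4A11 at -0.37), and the exchangers 7 rises and 4 falls among 12 (SLC9A8 at 0.98, SLC9B2 at -1.32). A single rise in each of these last 3 lists (SLC16A11, SLC4A9 and SLC9A3) was of a gene that passed the filter through the DOX libraries only.

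With DOX in the tet-MUC1shRNA line, the comparison that chose the genes, the lists are described by the sign of the fitted log2 fold change, with no test, beside a median of 0.02 over all genes. All 17 HIF targets had a negative value, with a median of -1.81 and EGLN3, a HIF prolyl hydroxylase that passed the filter through the vehicle libraries only, at -6.48. The other carbonic anhydrases had 3 positive and 4 negative values (CA11 at 1.95, CA4 at -0.47), and CA6, among the positive ones, passed the filter through the DOX libraries only. The other monocarboxylate transporters had 11 positive and 2 negative values (SLC16A10 at -0.88), and the other bicarbonate transporters 6 positive and 3 negative (SLC26A4, pendrin, at 2.40, SLC26A6 at -0.51). SLC4A9, among these positive ones, likewise passed it through the DOX libraries only. Exchangers had 5 positive and 7 negative values (SLC9B2 at 0.69, SLC9A7 at -0.41), and vacuolar ATPase subunits 11 positive and 9 negative (ATP6V0A1 at 0.79, TCIRG1 at -0.71). Among the positive values, SLC16A11 (0.53) and ATP6V0A4 (0.71) reached the filter's level in all 3 DOX libraries but in only 2 vehicle libraries.

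**Figure D4:**
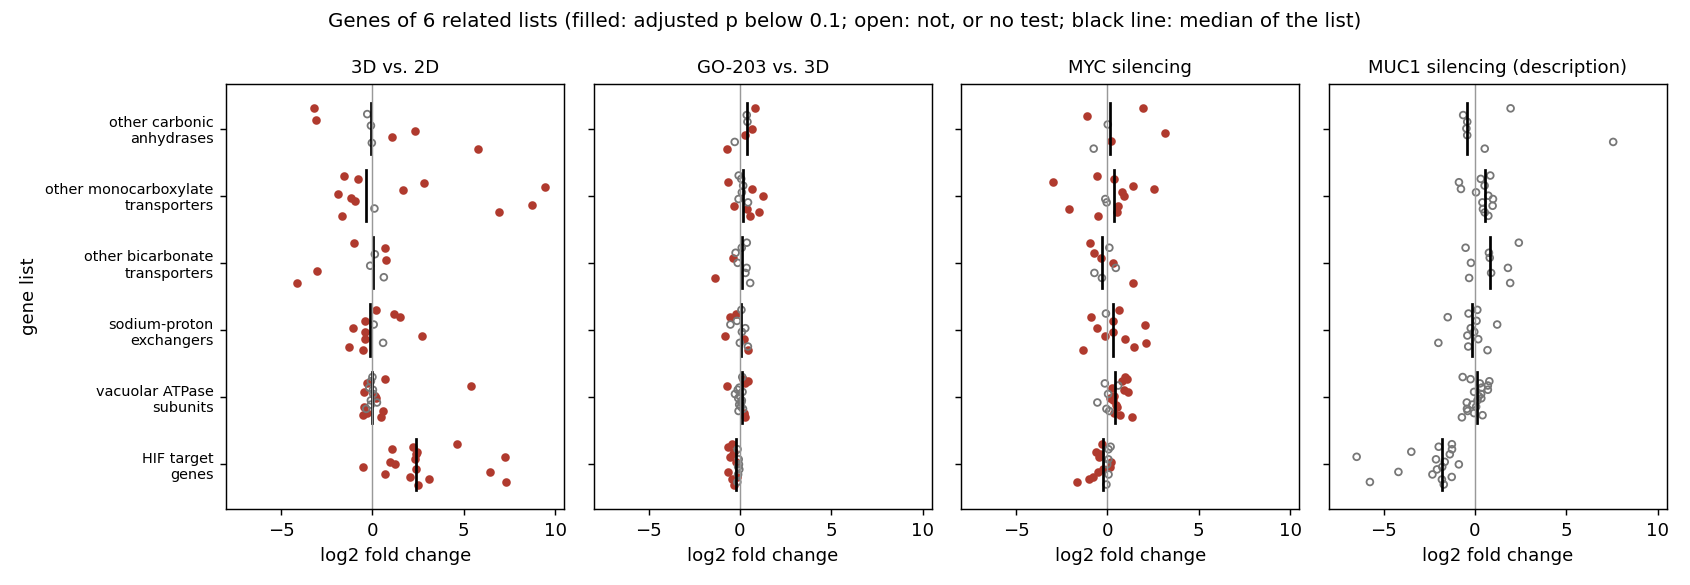
Log2 fold change (x axis) of every tested gene of 6 related lists (y axis) in the 4 comparisons. Filled points passed an adjusted p of 0.1, open points did not, and the black line is the median of the list. Genes that passed the low-count filter through one group only are drawn in the same way. Their difference was set in part by the filter, so a filled point is no test for them. All points of the tet-MUC1shRNA panel are open because it carries no test. The HIF target list has a median of 2.36 in 3D vs. 2D cells and -1.81 with DOX in the tet-MUC1shRNA line, and the vacuolar ATPase subunits one of 0.42 on MYC silencing.

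Genes with a pattern like that of each member were sought over the 7 group means of log2 CPM, each gene centered on its own mean, among 13604 genes with at least 1 CPM on average (13605 for CA2). The measure is the root mean square difference in log2 units, given as a description with no test. Nearest to CA9 were PNCK (1.01), PPFIA4 (1.22), SLC2A3 (1.25), SLC2A14 (1.26) and TCAF2 (1.34), beside a root mean square spread of 3.00 for CA9 itself. On MYC silencing the group mean of SLC2A3 went from 4.91 to 3.26 log2 CPM and that of PNCK from 2.15 to 2.73. SLC2A14 is a near copy of SLC2A3 and TCAF2 lies in a duplicated region, so reads may have been divided between copies.

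SLC16A1 had close neighbors in PGAM5 (0.0849), RRP1B (0.085) and DPH2 (0.0928), all of which had their lowest level in DOX-treated tet-MYCshRNA mammospheres. SLC4A7 was nearest to SRSF2 (0.0622), KLHL17 (0.066) and ADISSP (0.0679), and BSG to SDHAP3 (0.151), ALDH9A1 (0.158) and OVCH1 (0.167), of which SDHAP3 is a pseudogene with uncertain counts. For SLC16A3 the nearest were PER1 (0.299), ENSG00000277945 (0.32) and SLC6A15 (0.343), for CA12 VLDLR-AS1 (0.352), TCF7L1 (0.404) and MAGED1 (0.435), for CA2 MAPK8IP2 (0.296), ABCC3 (0.501) and ALKAL2 (0.535), and for SLC4A4 SH3RF2 (0.728), HHIP (0.844) and IGSF9 (0.862).

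**Figure D5:**
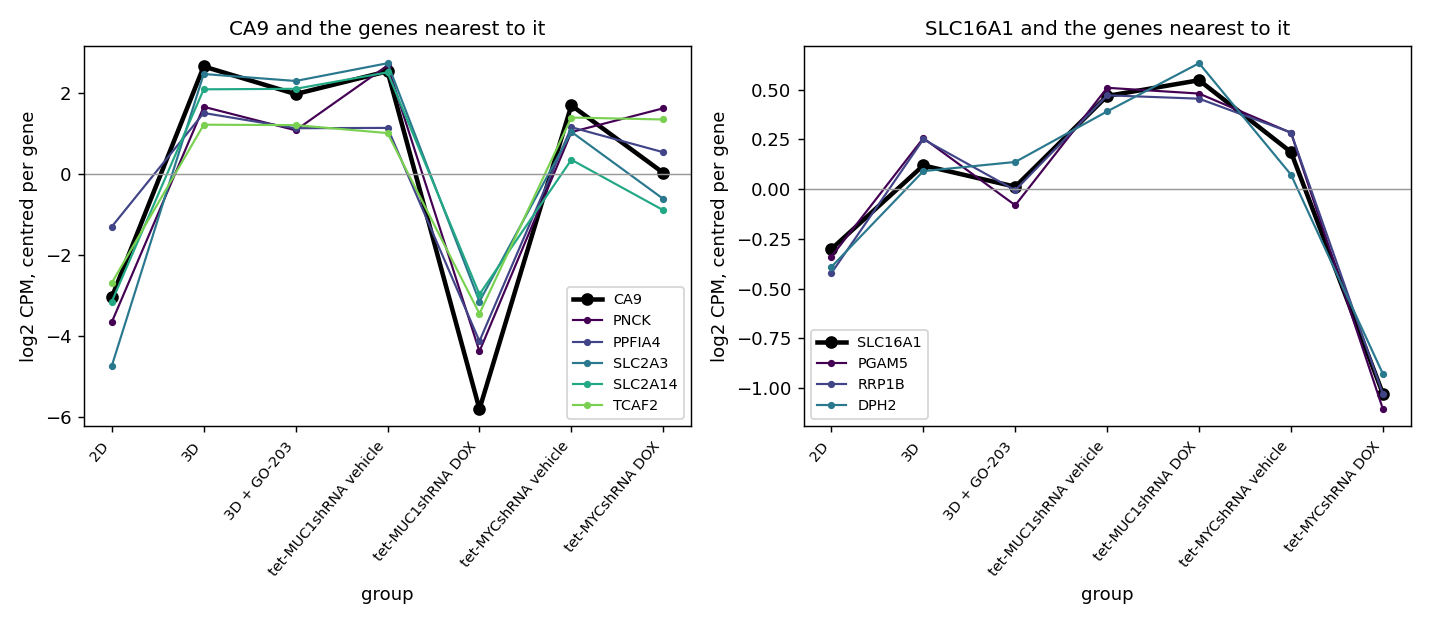
Group means of log2 CPM, centered per gene (y axis), over the 7 groups (x axis) for CA9 and its 5 nearest genes (left) and SLC16A1 and its 3 nearest genes (right). Each point is a mean of 3 libraries. The neighbors of CA9 lie 1.01 to 1.34 log2 units away on average and those of SLC16A1 between 0.0849 and 0.0928.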

How the data were processed

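The deposited values are raw read counts per gene, which the authors did not normalize. TruSeq stranded paired-end reads had been aligned to GRCh38 with STAR (CASAVA 1.8.2 and STAR 2.7.3a per the submitters' processing notes) and assigned to genes with featureCounts. The annotation release, strand setting and handling of reads mapping to several places are not given in the sources used here. Empty cells stand for 6498 genes in the libraries of 2D and 3D cells, 7587 in the GO-203, 4952 in the tet-MUC1shRNA and 5761 in the tet-MYCshRNA libraries. These blocks were read as 0, and the 8 genes have a value in every library.

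The 6 libraries of a comparison were fitted without the others, with edgeR 4.0.16 in R 4.3.3 (filterByExpr, TMM factors, quasi-likelihood test, Benjamini-Hochberg adjustment over all genes tested), with calls at an adjusted p below 0.1. Where named, the log2 change also had to exceed 1.5. Levels are CPM scaled by TMM factors over all 21 libraries. Fold changes come from each comparison's own scaling. Positions and exon lengths are those of GENCODE release 44, whose gene versions differ from those of the files for some genes. Promoters are from RefSeq. Library totals were 38026597 to 99751717. Replicates (21 pairs) were further apart than sampling noise allows (chi-square per degree of freedom 4.13 to 45.6). Between 67.0% and 71.1% of values from 1 to 20 were even, so that mates may have been counted apart, and counting intervals are then too narrow.

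The genes and lists were chosen with earlier results of these data known. Named genes are the 8 members, MUC1 and MYC, the largest rise and fall per list and comparison among called genes with a mean count of at least 100, and the nearest patterns (prior count 2). A gene that this rule names is not reported here. SLC16A12, CA4, CA8 and the genes that passed the filter through one group only are named after their values were seen. Alternatives were DESeq2 1.42.0, RLE factors, library size alone, a joint fit of all 21 libraries, a minimum of 10 counts in each library or of 1 count in total, a replicate block, an adjusted p of 0.05, the fold limit, each vehicle-treated line in place of 3D cells, and leaving out each library. The edgeR fits were tested on simulated data with 200 genes changed by 2 log2 units. They recovered 95.5% to 99% of these genes. Of the calls, 6.73% to 11.6% were false, with the highest share in the setting of GO-203 vs. 3D. Smaller changes, such as those of the 8 genes under GO-203, were not simulated.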

Additional observations from a re-analysis of the deposited data

Results flagged for a closer look

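For 2 of the genes every DOX-treated library moved one way in one tet line and the opposite way in the other, which drew attention to them. The log2 fold change of CA12 was -2.25 on MUC1 silencing and 0.51 on MYC silencing. That of BSG, the chaperone of the lactate transporters, was -0.72 on MUC1 silencing and 0.73 on MYC silencing. The difference between the lines was not tested, and the lines differ in shRNA and passage together.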

How the results depend on the processing

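Requiring a log2 change beyond 1.5 as well left 4 of the 8 genes in 3D vs. 2D cells, 0 under GO-203, 2 on MYC silencing and, as a description, 4 on MUC1 silencing, in place of 7, 4, 6 and 7, since most changes were smaller. These counts include genes that entered a fit only through their higher group (SLC4A4 in 3D vs. 2D cells, CA2 on MYC silencing, and CA9, CA2 and SLC4A4 on MUC1 silencing). No other alternative moved these counts by 1.5 times. BSG reversed in 3D vs. 2D cells with vehicle-treated tet-MUC1shRNA (-0.46) or tet-MYCshRNA mammospheres (-0.13) in place of 3D cells, and SLC16A3 reversed on MYC silencing without DOX replicate 2 (leaving out each library gave -0.12 to 0.30). The cause was not tested. Leaving out DOX-treated tet-MYCshRNA library 1, chosen for the wider lists after seeing the data, gave 2 in place of 3 rises for the other carbonic anhydrases, 1 in place of 2 for the other bicarbonate transporters and 3 in place of 2 for the HIF targets. SLC4A4 moved from -8.26 to -4.95 with vehicle-treated tet-MYCshRNA mammospheres. Scaling by library size alone on MUC1 silencing shifted the median over all genes from 0.02 to 0.19 (log2) and the share of calls that were upward from 49.3% to 64.4%, and SLC16A1 stood at 0.24 there in place of 0.07. Same-numbered libraries correlated between -0.176 and 0.0808 once the group means were removed, and the main fits did not pair them. Such correlations cannot show whether same-numbered cultures were set up together. With the replicate block the counts were 7, 4, 6 and 7. Genes near 0 counts, CA2 and SLC4A4 above all, are limited by depth, and their fitted fold changes depend on the prior count.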
